A study of Mus musculus with 2 samples.

Results

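The genes described here are 46 genes of fat cells and of fat storage and breakdown, grouped by role into adipokines, uptake and transport, lipid droplet and lipolysis, fatty acid synthesis, glycerolipid synthesis, regulators and other fat-enriched transcripts. A gene was found through probe sets (sets of short DNA probes against one transcript) that the array's annotation assigns to it and to no other gene. Through 88 of the 45101 probe sets, 42 of the 46 genes were found, out of 18193 genes in all. Cfd, Plin1, Adrb3 and Acsl1 were not analysed here. The study asked which mRNAs are regulated by monosodium urate (MSU) crystals, the crystals of gout, in the dissected membrane that lines an air pouch raised under the skin of the back. All mice were Balb/C females aged 6 to 8 weeks. Control pouches were injected with 1 ml PBS and MSU pouches with 2 mg MSU crystals in 1 ml PBS on day 7, and membranes were taken 9 h later. The RNA of 3 mice per condition was pooled and hybridized to 1 Affymetrix array. Replicates are thus lacking. No difference could be tested, and each value below describes these 2 pools.

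White fat cells store triglyceride in a single large droplet coated by perilipins and CIDE proteins. Lipoprotein lipase, the transporter CD36 and the carrier FABP4 bring fatty acids in, acetyl-CoA carboxylase, fatty acid synthase and stearoyl-CoA desaturase make them anew, and GPAM, AGPAT2, lipin 1 and the DGAT enzymes join them to glycerol. Adipose triglyceride lipase (Pnpla2), hormone-sensitive lipase (Lipe) and monoglyceride lipase (Mgll) release them again in sequence. PPARγ and C/EBPα keep this programme on, and the same cells secrete adiponectin, leptin and resistin. Fat lies close to the air pouch membrane in the subcutaneous tissue and the nuchal fat pad. The study saw no adipocytes in sections of dissected membranes and far more resistin mRNA in the overlying soft tissue. Resistin mRNA still varied between single control membranes. The paper proposes that small remnants of fat were left on them, and RNA was pooled to correct for this.

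Most of these genes had a lower signal after MSU crystals. A fold is given where both signals reached the detection floor of their array, 64.6 for the control pool and 74.1 for the MSU pool, and "at least" a fold where only 1 signal did and the other was set at its floor. Of the 42 genes, 38 could be measured in this way, 32 by a fold and 6 by a bound, all 6 of them lower. In the MSU pool, 25 of the 38 (65.8%) were at least 2-fold lower, against 4.29% of all 11155 measured genes. The genes described were brighter, with a median control signal of 832 against 270 for all genes with a fold. Dim genes cannot be called 2-fold lower above the floor, so the 2 shares are not like for like. Only Angptl4 (2.63% of the 38) was at least 2-fold higher, against 3.70% of all measured genes. The median log2 ratio of MSU over control was -1.26 for the 32 genes with a fold and -0.05 for all 10045 genes with a fold, and 30 of the 32 ratios lay below 0, compared with 55.0% of all. Among the 100 lowest ratios of the 10045 genes with a fold, 13 belonged to the genes described, which make up 32 of the 10045. Genes with only a bound were not ranked. The remaining 4 of the 42, Pparg, Cidea, Ucp1 and Aqp7, lay below the floor on both arrays, with control signals of 11.7 to 47.8 and MSU signals of 2.02 to 7.25.

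**Figure D1:**
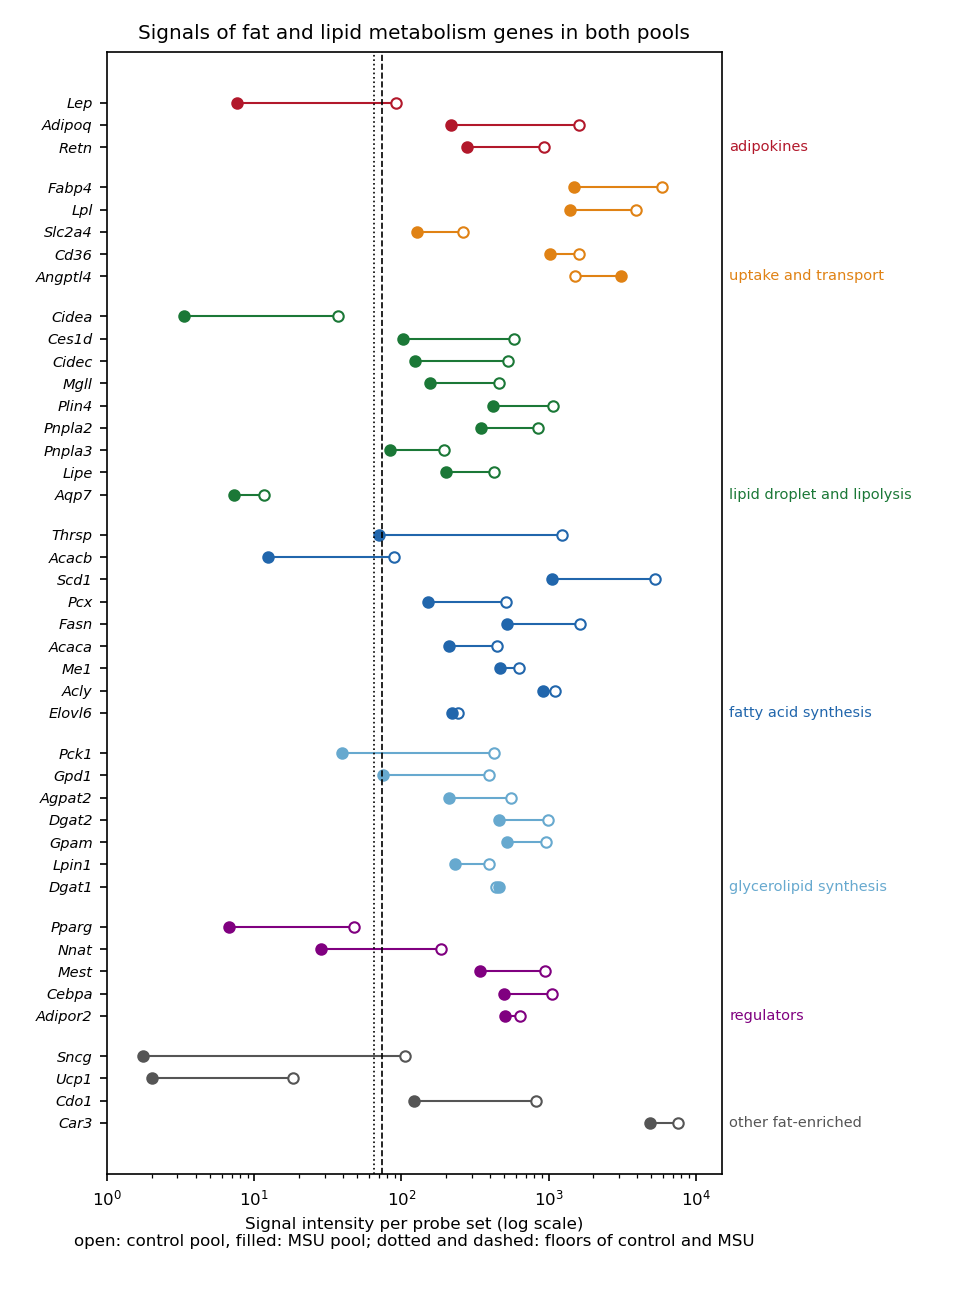
Signal per gene (x axis, log scale) in the control pool (open circles) and the MSU pool (filled circles), 1 array per pool, for the 42 genes found (y axis, coloured by role). The dotted and dashed lines are the floors of the control array (64.6) and the MSU array (74.1), and the filled circle lies left of the open one for all genes but Angptl4 and Dgat1.

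Transcripts of other tissues next to the membrane differed in the same direction. Of 15 skeletal muscle markers 7 were at least 2-fold lower, with signals that summed to 48947 (control) and 28717 (MSU), and of 8 measured glandular epithelium markers 5 were, with sums of 2298 and 832. The muscle signals ran from 148 to 7311 in the control pool and from 106 to 8398 in the MSU pool, those of the epithelium from 21.7 to 490 and from 3.97 to 194, with Cldn4, Cldn7 and Csn2 below the floor on both arrays. The sum of the 6 adipocyte markers found (Adipoq, Cidec, Retn, Lep, Lipe and Pparg) was 3636 and 839. Neutrophil markers went the other way, with sums of 2437 and 20528 over 8 genes and 6 of 7 measured at least 2-fold higher. Sums for 11 macrophage markers (29056 and 28860) and 8 fibroblast markers (56336 and 64697) were closer to each other. The macrophage sum hides differences between genes. Of its 11 markers, 6 had a log2 ratio below 0 and 1, Trem2, was at least 2-fold lower. Trem2 was 5.15-fold lower and Cd163 1.94-fold higher. The part of these tissues in the values below was not tested, and fewer fat cells in a pool and less RNA per fat cell cannot be told apart. Scaling both arrays on 18 hybridization spike-ins would lower each log2 ratio by 0.46, and 15.8% of all measured genes would then be at least 2-fold lower and 1.77% higher.

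All 3 adipokines found had a lower signal in the MSU pool. Adiponectin (Adipoq), a hormone made by fat cells that raises insulin sensitivity, had signals of 1610 (control) and 219 (MSU), a 7.36-fold lower value after MSU. Its log2 ratio of -2.88 was the lowest of the 32 genes and ranked 2 from the bottom among 10045. Resistin (Retn), which the study used as its own marker of fat, had signals of 932 and 280 and was 3.33-fold lower, a smaller difference than for adiponectin from the same cells. Leptin (Lep), the satiety hormone, had 92.5 and 7.66, which gives a ratio of 0.0828 but bounds it only as 1.25-fold lower or more, because its control signal lay just above the floor. The leptin value therefore does not place it above or below resistin.

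The promoters of the gene with the lowest fold, Adipoq, and of the gene with the largest bound, Thrsp, are shown because both were among the most unequal between the pools. RefSeq promoter windows (build GRCm38.p6) were found for 33 of the 46 genes, and the 250 bases before each transcription start were searched on both strands for 6 motifs that do not contain each other. The E-box was searched as CACGTG. The nuclear receptor half-site was searched as AGGTCA, the C/EBP site as TTGCGCAA and the GC box as GGGCGG. The TATA box was searched as TATAAA. The CCAAT box was searched as these 5 letters. Adipoq is on the plus strand at chr16:23146286-23146535 and Thrsp on the minus strand at chr7:97417551-97417800, each written 5′ to 3′ with the CCAAT boxes, in either orientation, in capitals.
Adipoq: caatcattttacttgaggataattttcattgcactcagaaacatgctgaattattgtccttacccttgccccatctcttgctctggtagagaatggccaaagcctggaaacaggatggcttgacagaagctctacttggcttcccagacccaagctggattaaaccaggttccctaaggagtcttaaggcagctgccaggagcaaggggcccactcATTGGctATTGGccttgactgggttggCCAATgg
Thrsp: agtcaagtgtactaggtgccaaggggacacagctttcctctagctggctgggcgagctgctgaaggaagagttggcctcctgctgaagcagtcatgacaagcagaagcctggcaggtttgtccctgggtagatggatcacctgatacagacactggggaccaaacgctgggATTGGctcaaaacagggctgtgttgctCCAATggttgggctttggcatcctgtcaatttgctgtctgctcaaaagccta
The 3 CCAAT boxes of Adipoq begin 34, 27 and 7 bases before the start, and the 2 of Thrsp begin 79 and 52 bases before it. None of the other motifs was found in these 2 windows. The CCAAT box was present in 12 of the 33 genes (36.4%), against 37.5% of all 27025 genes with a window, so that it does not set these genes apart. The E-box was found in 3 of the 33, Lipe, Mgll and Pcx, and in 6.86% of all genes, and the GC box in 16 of 33 and 35.4%. The nuclear receptor half-site was found in 8 of the 33 and in 15.8% of all genes. Of the 17 with a window that were at least 2-fold lower it was found in 0. Among the same 17 the E-box was found in 3, the GC box in 8 and the CCAAT box in 6. The TATA box was found in 1 of them and the C/EBP site in 0. The TATA box was found in 3 of the 33 and 14.3% of all genes, and the C/EBP site in Lep and in 0.185%.

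Uptake and transport genes included the 1 gene that was at least 2-fold higher. Fabp4, the fatty acid carrier of fat cells and also of macrophages, had signals of 5879 (control) and 1482 (MSU), or 3.97-fold lower. Lpl, the lipase that frees fatty acids from lipoproteins at the vessel wall, had 3912 and 1399, which is 2.80-fold lower. A further Lpl probe set, at 785 and 292, was 2.69-fold lower. Slc2a4, the insulin-regulated glucose transporter GLUT4 of fat and muscle, had 263 and 127 and was 2.08-fold lower. All 4 probe sets of Fabp4 were lower, by 1.80- to 3.97-fold, so its direction did not depend on the probe set while its size did. Cd36, the fatty acid transporter shared by fat cells, muscle, vessels and macrophages, had 1617 and 1019 and was 1.59-fold lower, and its second bright probe set was 1.12-fold lower. Angptl4, a secreted inhibitor of lipoprotein lipase, was 2.05-fold higher, at 1515 and 3113. Angptl4 and its target Lpl thus differed between the pools in opposite directions. The value of Angptl4 rests on a single probe set whose name ends in _s_at, which can also match other transcripts, and its other probe set lay below the floor on both arrays (42.7 and 35.8). Its log2 ratio of 1.04 was 0.97 under median scaling, 0.99 under quantile normalization and 0.58 under scaling on the spike-ins, each below the 2-fold size.

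All 7 measured lipid droplet and lipolysis genes were between 2.11- and 5.64-fold lower by their brightest probe sets. In no other role could all measured genes be called at least 2-fold lower. Among the adipokines this is left undetermined by Lep alone, which is bounded only as 1.25-fold lower or more. Cidec, a droplet protein that fuses droplets into large ones, had signals of 528 and 124 and was 4.25-fold lower. Plin4, a perilipin of new droplets, had 1072 and 416 and was 2.58-fold lower. The transcripts of these 2 droplet proteins were thus lower, whereas those of the perilipins Plin2 and Plin3, given below, were nearer to equal. Pnpla2, which takes the first fatty acid from a triglyceride, had 845 and 346 and was 2.44-fold lower. Lipe, which takes the second, had 426 and 202 and was 2.11-fold lower. Mgll, which takes the last, had 458 and 155 and was 2.95-fold lower, and by its other probe sets with a fold 2.35- and 1.79-fold. The transcripts of the lipases of the 3 steps were thus lower by similar factors. Pnpla3 (adiponutrin) had 194 and 83.0 and was 2.34-fold lower, with an MSU signal near the floor. Ces1d, a carboxylesterase of fat and liver that hydrolyses triglyceride, had 583 and 103 and was 5.64-fold lower, the largest difference of the group, and a second probe set (435 and 81.5) was 5.34-fold lower. Pnpla2 and Lipe each had a further probe set below the floor on both arrays, at 11.3 and 50.6 for Pnpla2 and 17.9 and 19.3 for Lipe. Cidea, which marks brown fat as well, and the glycerol channel Aqp7 lay below the floor on both.

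Genes of fatty acid synthesis ranged from many-fold lower to nearly equal. Thrsp, a regulator of lipogenesis in fat, liver and mammary gland, had signals of 1231 (control) and 70.3 (MSU), or at least 16.6-fold lower, the largest of the 6 bounds. A second Thrsp probe set, at 513 and 35.5, was at least 6.92-fold lower, whereas another with low signals (43.7 and 86.9) was at least 1.34-fold higher. Scd1, which makes monounsaturated fatty acids, had 5307 and 1054 and was 5.04-fold lower, and by its second probe set 2.35-fold. Pcx, pyruvate carboxylase, had 513 and 151 and was 3.39-fold lower. Fasn, which builds palmitate, had 1627 and 525 and was 3.10-fold lower. These 4 genes were all past 3-fold. Of the other five, 4 had a fold and were closer to equal, and Acacb had only a bound. Acaca, which makes malonyl-CoA for synthesis, had 447 and 209 and was 2.13-fold lower, although its dimmer probe set, at 74.2 and 86.7, was 1.17-fold higher. Acacb, the isoform that restrains oxidation, had 89.1 and 12.3 and was at least 1.20-fold lower. Both carboxylases thus had a lower signal, but neither value is firm, the first for its split probe sets and the second for its low signal. Me1, malic enzyme and a source of NADPH, had 627 and 464 and was 1.35-fold lower. Acly, which makes cytosolic acetyl-CoA, had 1106 and 911 and was 1.21-fold lower. Elovl6, which extends palmitate to stearate, had 241 and 220 and was 1.10-fold lower. The log2 differences of Acly and Elovl6 were smaller than 0.33, the pooled SD among probe sets that share a gene. The median log2 ratio was -1.09 over the 7 genes with a fold, and 5 of the 9 measured were at least 2-fold lower.

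By their brightest probe sets, the genes that supply the glycerol backbone differed more than those that acylate it. Pck1, which supplies glycerol from pyruvate in fat, had signals of 429 and 39.4 and was at least 5.79-fold lower, and by a second probe set at least 2.53-fold. Gpd1, which makes glycerol 3-phosphate, had 391 and 74.9 and was 5.22-fold lower, with an MSU signal just above the floor. Its other probe sets with a fold were 2.11- and 1.17-fold lower, the widest range of any gene here with 2.16 on the log2 scale. Agpat2, whose loss causes lipodystrophy, had 554 and 212 and was 2.62-fold lower. Dgat2, which completes triglyceride, had 991 and 458 and was 2.17-fold lower, and its second probe set 1.31-fold. Dgat1, which catalyses the same step, had 442 and 457, a log2 ratio of 0.05 that falls below 0 under median scaling and under scaling on the spike-ins. The enzymes of this last step were thus unequal, Dgat2 with lower signals on both of its probe sets and Dgat1 on neither. Gpam, the mitochondrial acyltransferase of the first step, had 961 and 525 and was 1.83-fold lower. Lpin1, the phosphatidate phosphatase, had 392 and 232 and was 1.69-fold lower. In this group 4 of 7 measured genes were at least 2-fold lower, with a median log2 ratio of -0.99 over the 6 with a fold.

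Of the master regulators Cebpa and Pparg, only Cebpa could be measured. Cebpa, which keeps fat cells differentiated and is also used by myeloid cells, had signals of 1049 and 497 and was 2.11-fold lower. Pparg had 47.8 and 6.71 on its 1 probe set, below the floor of either array. Mest, an imprinted gene that is high in enlarging fat cells, had 951 and 344 and was 2.76-fold lower, and Nnat (neuronatin), also imprinted, had 185 and 28.6 and was at least 2.50-fold lower. The imprinted pair thus lay on the same side as Cebpa. Adipor2, an adiponectin receptor, had 639 and 507 and was 1.26-fold lower. Among the other fat-enriched genes, Cdo1, which oxidises cysteine, had 819 and 122 and was 6.74-fold lower. Car3, a carbonic anhydrase abundant in fat and slow muscle, had 7572 and 4875 and was 1.55-fold lower, but 3.01-fold by its second bright probe set (3133 and 1042). Sncg, γ-synuclein of fat cells and neurons, had 106 and 1.76, which gives a ratio of 0.0166 but bounds it only as 1.44-fold lower or more. Ucp1, the uncoupler that defines brown fat, lay below the floor on both arrays (18.3 and 2.02).

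The log2 ratios varied among these genes, and whether 1 common factor underlies them was not tested. The spread among probe sets given below comes from the same 2 arrays and is no error of a ratio between pools. The SD of the log2 ratio among the 32 genes with a fold was 0.86, compared with 0.57 over all genes with a fold, and its quartiles were -1.74 and -0.74. Among 15 genes with a fold that are not marked here as also known from skeletal muscle, macrophages or gland epithelium, the SD was 0.80 and the range ran from -2.88 (Adipoq) to 0.05 (Dgat1). Where a gene had 2 or more probe sets with a fold, as 18 of these genes did, the SD among them had a median of 0.36, and the pooled SD over 4002 such genes of the array was 0.33. Probe sets of a gene kept to the same side of 0 in 16 of the 18 genes, in 15 of them all lower and in Dgat1 higher, the exceptions being Acaca and Acly. Of the 84 probe sets that are not Affymetrix controls, 55 had a fold, 50 of them below 0, 11 had a bound on the lower side, 1 on the higher side, and 17 lay below the floor on both arrays. The other 4 are control probe sets of Pcx. The one nearest its 3′ end, at 250 and 96.1, was 2.60-fold lower, the others at least 1.19- to 1.33-fold lower.

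**Figure D2:**
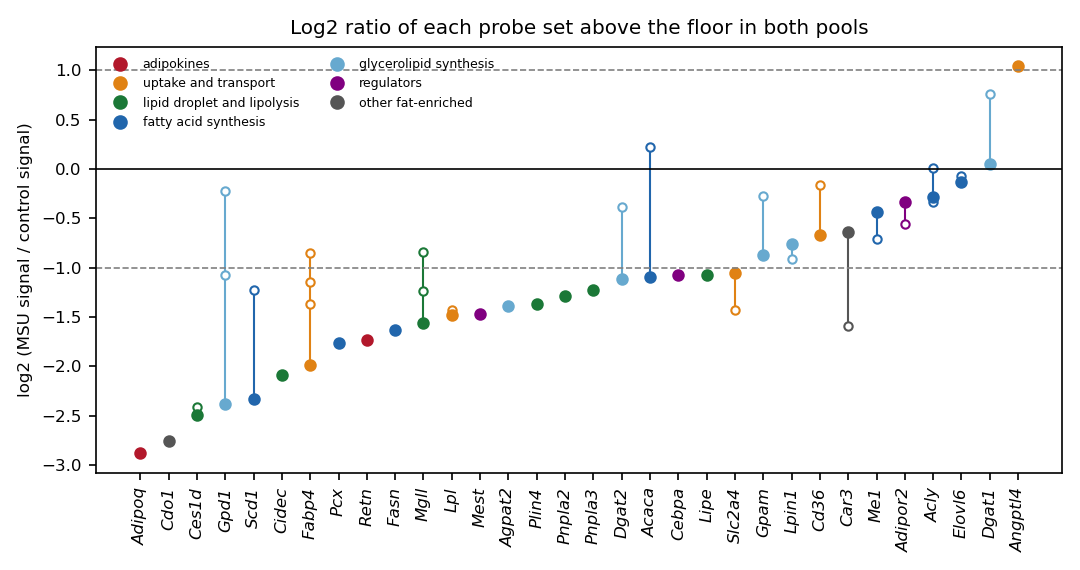
Log2 of MSU over control signal (y axis) for each probe set above the floor in both pools, by gene (x axis, in order of the brightest probe set), 1 array per pool. Filled circles are the brightest probe set of a gene, open circles its others, lines their range, colours the role and dashed lines 2-fold, and the range is widest for Gpd1, and Acaca and Acly cross 0.

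Counts were also taken with genes of other tissues set aside. Of the 19 measured genes not marked for another tissue, 15 were at least 2-fold lower (78.9%) and none at least 2-fold higher. Their median log2 ratio was -1.47 over 15 folds. Cebpa is among them although myeloid cells use it, and without it 14 of 18 were at least 2-fold lower. Of the 11 genes marked as also known from skeletal muscle, 5 were at least 2-fold lower and 1, Angptl4, higher, with a median log2 ratio of -0.91. Of the 7 marked for gland epithelium, 4 were at least 2-fold lower, and of the 5 measured that are marked for macrophages, 3. The marks rest on general knowledge of these genes and not on these arrays.

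Within families, the gene listed here as a fat gene had the lower ratio in most comparisons. The name refers to the list of genes described and not to fat cells alone. By the marks above, Scd1 and Elovl6 are also known from gland epithelium and Fabp4 from macrophages. Plin4, Pnpla2, Lpin1 and Adipor2 are also known from skeletal muscle. Of 22 pairs compared, 20 had a fold on both sides, and in 19 the fat gene's log2 ratio was below that of its relative, in 16 with no overlap of the probe sets. Several pairs share a fat gene, as those of Agpat2 do, so the pairs are not separate observations. In some, such as Plin4 against Plin2, each gene had only 1 probe set with a fold, which leaves no ranges to overlap. Dgat1, counted as the relative of Dgat2, is also among the genes described, and these roles were set with the values known. The families of 7 of the 20 pairs were chosen after their values were seen, and the fat gene was below its relative in 12 of the other 13. Over every pair of the families in the naming rule that had a fold on both sides it was so in 14 of 15, which adds Retn against Retnla (1216 and 1408) and Pnpla3 against Pnpla8. Lpin3 and Cideb, each with a bound on the higher side, Plin5, with one on the lower side, and Acsl5, whose relative Acsl1 was not analysed here, were not compared. The desaturase Scd2 had signals of 2055 and 2104, a log2 ratio 2.37 above that of Scd1. Fabp5, the carrier of skin and macrophages, had 2172 and 3409 and was 1.57-fold higher, against the 3.97-fold lower Fabp4, although its second probe set had a log2 ratio of -0.16. The perilipins found in most cells that hold droplets were nearer to equal than Plin4, with signals of 2141 and 2307 for Plin2 and of 733 and 584 for Plin3, which was 1.26-fold lower.

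The same order was seen among the enzymes that acylate glycerol. The log2 ratios of Agpat1, Agpat3, Agpat4 and Agpat5 were 0.07, -0.34, -0.76 and 0.37, all above the -1.39 of Agpat2. Gpat3 and Gpat4, acyltransferases of the endoplasmic reticulum, had log2 ratios of 0.47 and 0.20, against -0.87 for the mitochondrial Gpam. Lpin2, with signals of 308 and 375, had a log2 ratio 1.04 above that of Lpin1. Mitochondrial Gpd2 (194 and 257) and the relative Gpd1l (381 and 224) also lay above Gpd1, but their probe sets overlapped with the wide range of Gpd1. Pck2, the mitochondrial form, had 242 and 234, against the bound of at least 5.79-fold lower for cytosolic Pck1. The other pair without folds on both sides went the opposite way, since Fabp3, at least 4.79-fold lower by its brightest probe set, lay below Fabp4 at 3.97-fold lower. The Elovl family showed no such difference, since Elovl6 lay within 0.03 on the log2 scale of both Elovl1 and Elovl5. A difference between genes of the same array is not moved by scaling, but log2 ratios between 0 and 0.46 fall below 0 under scaling on the spike-ins.

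C/EBP factors, which act in turn when fat cells form, were unequal in direction. Cebpb, an early factor that is also induced in inflammation, was 2.32-fold higher, at 2670 and 6203, and Cebpd was 1.88-fold higher, at 1419 and 2669, whereas Cebpa was 2.11-fold lower. The log2 ratio of Cebpa lay 2.29 below that of the brightest Cebpb probe set. A second Cebpb probe set (534 and 2601) was 4.87-fold higher. For the adiponectin receptors the difference was smaller, with 929 and 1066 for Adipor1 and a log2 ratio of Adipor2 that was lower by 0.53. The lipase relative Pnpla8 (413 and 504) had a log2 ratio 1.57 above that of Pnpla2.

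**Figure D3:**
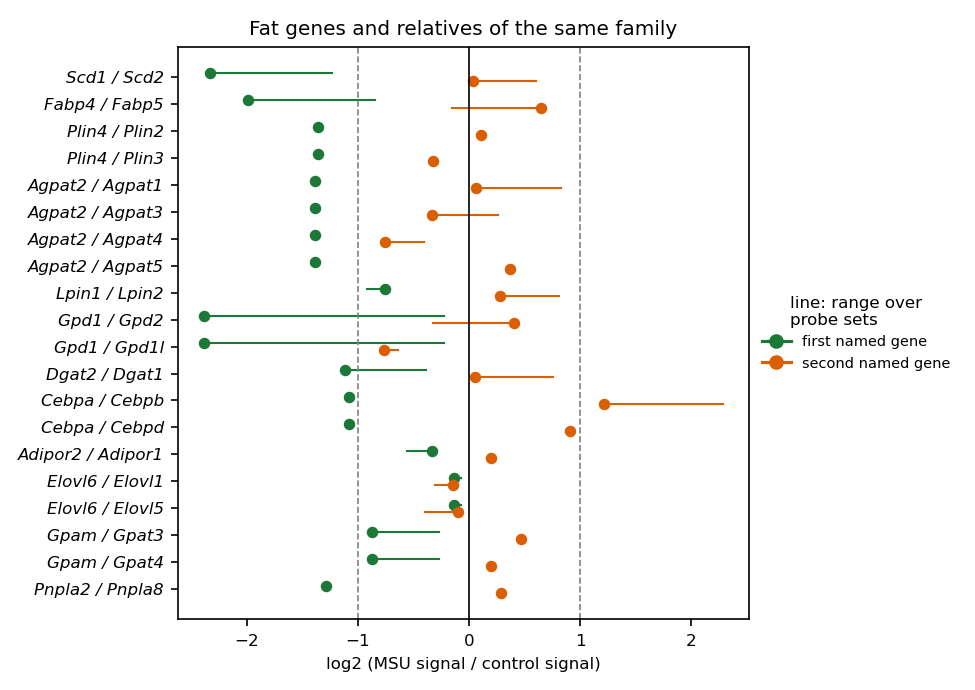
Log2 ratio, MSU over control (x axis), for 20 pairs with a fold on both sides (y axis), 1 array per pool. Green is the gene described here and orange its relative, although Dgat1 is among the genes described too. Points are the brightest probe set, lines the range over probe sets with a fold and dashed lines 2-fold, and the green point lies left of the orange one in 19 pairs, the exception being Elovl6 against Elovl1.

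Other genes of fat metabolism were closer to the array as a whole than the 46 were. They comprise further genes of the same roles and lists of fatty acid oxidation, imprinted and heat production genes. Of 136 such genes, 125 were found and 105 measured. Of these 13 (12.4%) were at least 2-fold lower and 6 (5.71%) at least 2-fold higher. The 105 had a median log2 ratio of -0.21 over 97 folds. Among the 13 lower genes, 3 were of fatty acid oxidation, 2 imprinted and 1 of heat production. The medians of the other adipokine, glycerolipid synthesis and regulator genes were 0.33, 0.07 and 0.00, and those of the other uptake, droplet and lipolysis, and fatty acid synthesis genes -0.12, -0.14 and -0.24. Srebf1, the transcription factor that drives lipogenic enzymes, had signals of 740 and 729, whereas the other such factor, Mlxipl (ChREBP), had 165 and 19.1 and was at least 2.22-fold lower. Irs1, the insulin receptor substrate, had 738 and 202 and was 3.66-fold lower, while the insulin receptor itself (Insr) had 250 and 249.

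Lower genes outside the 46 included several that muscle and macrophages also use. Acss2, which makes acetyl-CoA from acetate, was 2.71-fold lower, the lysosomal lipase Lipa 2.14-fold and the acyl-CoA synthetase Acsl3 2.04-fold. By other probe sets with a fold, Acss2 was 1.75-fold lower and Lipa 1.95- and 1.46-fold lower. Fitm1, a droplet protein of muscle, was 2.81-fold lower, and the cytochrome oxidase subunit Cox8b of muscle and brown fat 3.64-fold. Fabp3, the carrier of muscle and heart, was at least 4.79-fold lower with signals of 355 and 62.4, whereas its dimmer probe set had 88.5 and 91.5. The skeletal muscle markers given above were lower too, and their part in these values was not tested.

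Higher genes outside the 46 included inhibitors and early regulators. G0s2, the protein that blocks the lipase Pnpla2 and is also found in leukocytes, was 3.81-fold higher, at 215 and 819. The transcripts of the lipase and its inhibitor thus differed in opposite directions, as did those of Lpl and Angptl4. Acsl4, the synthetase for arachidonic acid, had 474 and 1163 and was 2.46-fold higher, and Ppard, the relative of Pparg found in most tissues, had 53.3 and 174 and was at least 2.70-fold higher. By its other probe sets Acsl4 was 1.84-fold and at least 4.57-fold higher. Dio2, which activates thyroid hormone, was 3.23-fold higher with 78.2 and 252, but 1.54-fold by another probe set (106 and 163). Sfrp5, a Wnt antagonist secreted by fat, was 2.37-fold higher by its brightest probe set, but its other probe set, at 97.5 and 34.4, was at least 1.32-fold lower. Neutrophil markers were also higher in the MSU pool, and their part in the values of G0s2, Acsl4 and Cebpb was not tested.

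Genes of fatty acid oxidation had a median log2 ratio above that of the 46 genes and below those of the other pathway genes of uptake, droplet and synthesis. Of 18 measured, 16 had a log2 ratio below 0, with a median of -0.61, and 3 were at least 2-fold lower. These were Hadh (2281 and 1045, 2.18-fold), Acaa2 (623 and 304, 2.05-fold) and Etfb (1313 and 649, 2.02-fold), all enzymes of the mitochondrial β-oxidation chain. Pdk4, a kinase that spares glucose when fat is burned, had 642 and 901 and was 1.40-fold higher, and its log2 ratio of 0.49 is close to the shift that scaling on the spike-ins would make. Of 8 imprinted genes besides Mest and Nnat, 7 had a log2 ratio below 0, with a median of -0.70. Plagl1 (4123 and 1518) was 2.72-fold lower, although a dim probe set was equal (79.7 and 79.1), and Cdkn1c (709 and 340) 2.08-fold lower, while Dlk1, which marks fat cell precursors, had 857 and 564 and was 1.52-fold lower.

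**Figure D4:**
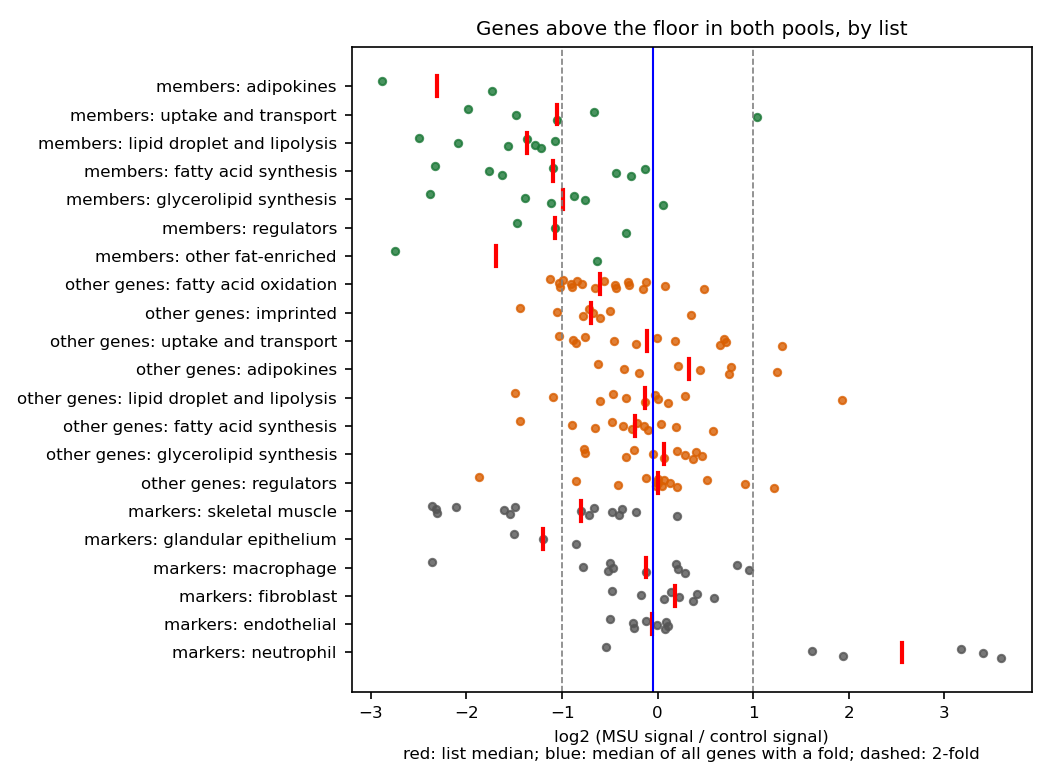
Log2 ratio, MSU over control (x axis), for genes above the floor in both pools, by list (y axis), 1 array per pool: the genes described here by role (green), other genes of the same roles and of fatty acid oxidation and imprinted lists (orange) and cell type markers (grey). Red bars are list medians, the blue line the median of all genes with a fold (-0.05) and dashed lines 2-fold, and all green medians lie left of all orange ones.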

How the data were processed

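The authors isolated RNA on RNeasy columns, pooled it and scanned Mo430_2 arrays with Affymetrix GCOS software, listed as MAS5 in the submitters' processing notes without a version. The deposited unit is signal intensity on a linear scale, already scaled by the authors to a common trimmed mean, so that ratios are relative to the bulk of transcripts. The records and the paper differ on the day of injection, and the records are followed here.

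Of 45101 probe sets, 34958 have 1 gene in the platform annotation, 932 several and 9211 are not listed. Symbols were updated by RefSeq gene identifiers (GRCm38.p6). Each gene takes the value of its brightest probe set over both arrays, without 64 Affymetrix controls. An array's floor is the signal at the rank given by the study's number of detected probe sets, and takes no account of probe-level background. The number of arrays limits the precision, and no p-value was computed.

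The genes and lists were chosen with earlier results of these data known. Each of the 46 above a floor is named with both signals. Other pathway genes are named if at least 2-fold different, or if of the same family as one of the 46 and compared with it. Srebf1, Insr, Pdk4, Dlk1, the promoters and the pairs with Gpd2, Gpd1l, Pck2, Gpat3, Gpat4, Cebpb, Cebpd and Dgat1 were chosen after their values were seen. Of 247 listed symbols, 231 were found. The sebaceous gland list had 0 of 3 genes measured, the endothelial list 0 of 8 at least 2-fold different, and the brown adipocyte list 2 of 5 measured. Python 3.11.15, numpy 2.4.6, pandas 2.3.3 and matplotlib 3.10.9 were used.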

Additional observations from a re-analysis of the deposited data

How the results depend on the processing

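Of the 25 genes at least 2-fold lower, 25 remained so under median scaling (5.15% of all measured genes lower) and quantile normalization (4.17%). All 25 also remained under scaling on the spike-ins, which gave 29 (15.8% of all), and no floor, which gave 31 (9.48%). They remained too without probe sets ending in _x_at or _s_at (4.38%). With a floor at the 15000th highest signal or at a signal of 100 the count was 23, without Nnat and Pnpla3. Of all measured genes, 4.01% and 4.18% were then lower. With the floors added as a pseudocount 20 genes were lower (1.19% of all genes), 19 of them among the 25. Acaca, Cebpa, Dgat2, Lipe, Pnpla3 and Slc2a4 were lost and Sncg was gained. With the median of each gene's probe sets 22 were lower (3.97% of all measured genes), 21 of them among the 25. Acaca, Dgat2, Lipe and Pnpla2 were lost and Car3 was gained. A size of 3-fold left 12 of the 46 genes, against 0.717% of all measured genes, and genes not marked for another tissue gave 15, or 14 without Cebpa, with a median log2 ratio of -1.60, a setting chosen after seeing the data. The count of genes at least 2-fold higher was 1, and 0 under median scaling, quantile normalization, scaling on the spike-ins, the median over probe sets, leaving out _x_at and _s_at probe sets, a size of 3-fold and genes not marked for another tissue, with or without Cebpa. Angptl4 had log2 ratios of 0.97 and 0.99 under the first 2 of these.

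The median log2 ratio of all genes described was -1.71 under scaling on the spike-ins. By role the medians were then -2.76 for adipokines, -1.51 for uptake and transport, -1.82 for lipid droplet and lipolysis, -1.55 for fatty acid synthesis, -1.45 for glycerolipid synthesis, -1.53 for regulators and -2.15 for other fat-enriched genes. With no floor they were -2.88 for adipokines, -1.63 for fatty acid synthesis, -1.47 for regulators and -2.96 for other fat-enriched genes. With the floors as a pseudocount they were -1.49 for adipokines, -0.71 for uptake and transport and -0.90 for other fat-enriched genes. The median over probe sets gave -0.57 for fatty acid synthesis and -2.33 for other fat-enriched genes, and including bounds -1.74 for adipokines and -0.64 for other fat-enriched genes. The adipokine and other fat-enriched medians rest on 2 genes each. With the median over probe sets the log2 ratio of Pnpla2 was 0.44, since its other probe set lies below the floor, and that of Sfrp5 -0.13. Each of the other role medians moved by less than the pooled SD of 0.33 between probe sets. No paired analysis was possible because each condition has 1 array. The number of arrays and signals near the floor, as for Lep, Acacb and Sncg, limit what can be said.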
